A study of Homo sapiens with 6 samples.

Results

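Iron handling and metallothionein genes were read out in SH-SY5Y cells, a human neuroblastoma line that becomes neuron-like when differentiated. The set held 10 genes of the 61860 listed in the deposited table, matched by symbol and chosen with earlier results of these data known: FTH1, FTL, TFRC, SLC40A1, SLC11A2, IREB2, ACO1, MT1X, MT2A and MTF1. All 6 RNA sequencing libraries came from cells treated with all-trans retinoic acid for differentiation and then for 24 h with D-glucose (30 mM) and insulin (100 nM), which was used to induce insulin resistance (IR). The IR control group (3 libraries) received nothing further per the labels, and the IR+Oligonol group (3 libraries) also had Oligonol, a polyphenol preparation from lychee fruit, at 500 ng/mL for 24 h. The comparison asks how Oligonol altered transcripts in insulin-resistant cells. Cells in which insulin resistance had not been induced are not analysed here. All libraries came from 1 tumour-derived line, and the labels do not say whether replicates were separate cultures. The p-values therefore measure only how far these libraries spread, which may be technical variation.

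Cells take up transferrin-bound iron through the transferrin receptor, move it into the cytosol through divalent metal transporters, store it in ferritin shells and release it through ferroportin. The iron regulatory proteins bind a hairpin in the mRNA, the iron-responsive element (IRE), when iron is scarce. Binding near the start of an mRNA blocks translation, as for ferritin, and binding after the coding region protects the mRNA from decay, as for the transferrin receptor, so that ferritin protein can change without its mRNA. Metallothioneins are small cysteine-rich proteins that bind zinc, copper and cadmium, and their genes are switched on by the zinc-sensing factor MTF1 through metal-responsive elements (MREs).

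The IRE letters are shown for the members in which they were found, because position in the mRNA decides what the regulatory proteins do. Transcripts of GENCODE release 29 (GRCh38) were searched for an unpaired C, a stem of 5 pairs and the loop CAGTGN. The 6-base loop is in capitals, and each site of 29 bases is written 5′ to 3′ along the mRNA.
FTH1 5′ UTR, chr11:61967574-61967602, minus strand: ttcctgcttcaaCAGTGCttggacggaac
FTL 5′ UTR, chr19:48965335-48965363, plus strand: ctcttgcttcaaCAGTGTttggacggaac
SLC40A1 5′ UTR, chr2:189580661-189580689, minus strand: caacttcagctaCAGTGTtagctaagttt
TFRC 3′ UTR, chr3:196050463-196050491, minus strand: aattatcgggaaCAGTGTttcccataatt
TFRC 3′ UTR, chr3:196050510-196050538, minus strand: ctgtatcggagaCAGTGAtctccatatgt
TFRC 3′ UTR, chr3:196050575-196050603, minus strand: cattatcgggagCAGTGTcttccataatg
TFRC 3′ UTR, chr3:196050979-196051007, minus strand: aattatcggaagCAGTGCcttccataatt

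With at least 4 of 6 lower stem positions also paired, a match was held by 0.125% of 83129 protein-coding transcripts, and by 44 of 19684 protein-coding genes. No match was found in SLC11A2, IREB2, ACO1, MT1X, MT2A or MTF1. This says only that no site in their searched transcripts met the full rule of unpaired C, stem and loop. A hairpin with a bulge or a mismatch in that stem would be missed. Whether these mRNAs carry an IRE of another form was therefore not tested.

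Estimated counts summed to 19457923 to 32209583 per library, and protein-coding genes held 6.24 to 6.83% of them in the controls and 10.0 to 12.3% with Oligonol. The values behaved as abundances per transcript length where this was checked, in genes with 1 transcript and a low level. Levels of different genes are set beside each other on that basis, which was not checked for genes with several transcripts. Levels below are CPM, a count relative to the scaled library size, after scaling by the trimmed mean of M values (TMM), given as mean ± SD with n = 3, and fold changes are log2, IR+Oligonol over IR control. In bulk RNA, fewer cells of a type and less RNA per cell cannot be told apart. Markers of noradrenergic neuroblasts were present: all 8 were detected and summed to 2913 to 3610 estimated counts in controls and 3550 to 3949 with Oligonol, with TH, the rate-limiting enzyme of catecholamine synthesis, near 0 (0.85 to 1.79). On the TMM scale used below, 7 of the 8 were tested, with a median log2 fold change of -0.63. CHGA, a granule protein of these cells, was called lower (-0.93, adjusted p = 0.0257), and had 0.00 with the GC trend removed. With the GC trend removed the median of the 7 was 0.29. With scaling by library totals it was 0.76, beside 1.53 for all tested genes. There 6 were called higher (all genes 11293 of 16574), CHGA among them (0.42, adjusted p = 0.0287). Markers of other cells were low: 6 glial markers summed to 26.7 to 37.4 and 45.1 to 77.9, 5 myeloid markers to 9.97 to 26.6 and 25.0 to 48.0, and 5 erythroid markers to 1.79 to 2.95 and 5.77 to 10.7, with AIF1 and ITGAM at 0 in the controls. Their part in the results was not tested.

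All 10 members passed the filter on low counts, MTF1 only through the Oligonol group, so it had to be higher there and its call supports nothing. In edgeR's quasi-likelihood test, with Benjamini-Hochberg adjustment over 16574 genes and a threshold of 0.05, 4 members were higher with Oligonol (IREB2, TFRC, SLC11A2 and, by the filter, MTF1), against 26.0% of all genes tested. In that test 3 were lower (FTL, MT2A and MT1X), against 23.0% of all genes. Against this background the members' counts are no result about them. The groups did not overlap for 8 of 10 members, against 62.7% of all genes. The split depended on scaling: 6 higher and 2 lower with the scaling of the deposited signal (all genes 6396 and 1666), 3 and 3 with RLE scaling (all genes 3976 and 4100), and 8 and 0 with library totals (all genes 11293 and 37, where no member was lower at an unadjusted p under 0.05 either). The median log2 fold change of all tested genes was 0.15 with TMM, 0.55 with the deposited signal's scaling and 1.53 with library totals.

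Fold changes followed GC content across the transcriptome, with a Spearman's rho of -0.851 over 11719 protein-coding genes, a description, since genes are not independent. The 4 members that rose had transcript GC contents of 41.5 to 47.3%, and the 3 that fell 52.5 to 56.3%. Each library's GC trend was therefore also removed, which takes out any true change that follows GC as well. Then 1 member was higher, IREB2, against 2.89% of 16200 genes. None was lower in edgeR's test, against 2.56% of genes. At an unadjusted p under 0.05 in that test, 3 members were higher (FTH1, TFRC and IREB2) and 3 lower (FTL, MT1X and MT2A). That threshold was met by 4447 of the 16200 genes, in either direction. What part GC content plays in each result was not tested.

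**Figure D1:**
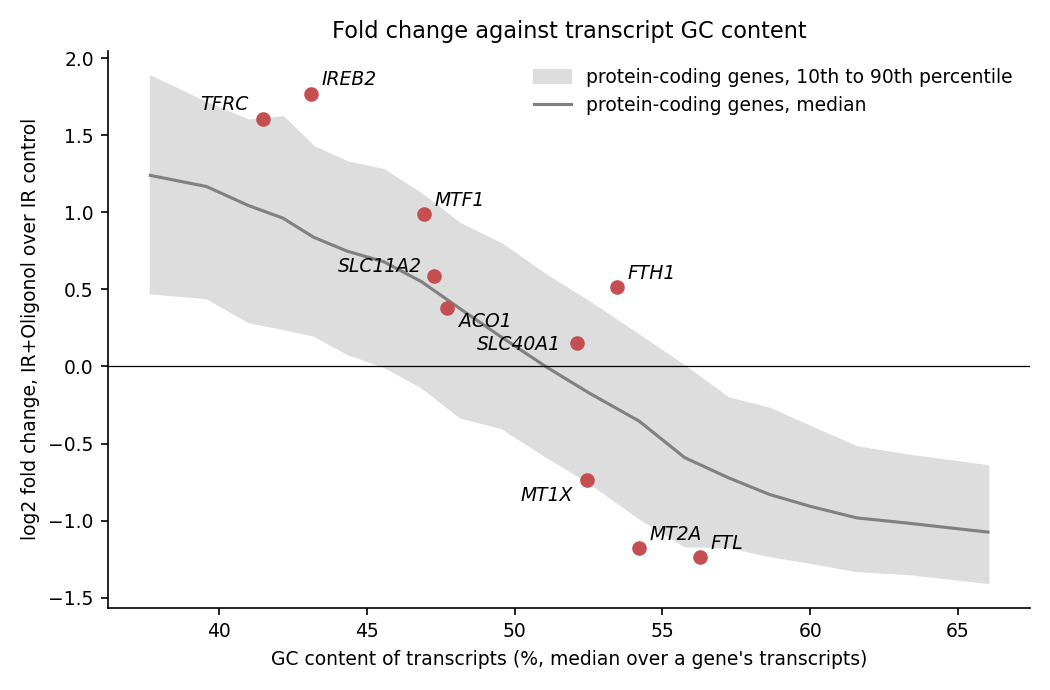
Log2 fold change (IR+Oligonol over IR control, TMM scaling) against transcript GC content (%), with each member as a red point, the median of protein-coding genes as a grey line and their 10th to 90th percentiles as a band. TFRC and IREB2 have the lowest GC and the highest values, and FTL and MT2A have the highest GC and the lowest values; FTH1, at 53.5% GC, and IREB2 lie above the band, TFRC at its upper edge, and FTL and MT2A below it.

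Among the storage genes, ferritin light chain fell and ferritin heavy chain did not pass the test. FTL (chr19:48965309-48966879), whose chain helps iron to nucleate in the shell, had 252.2, 349.7 and 331.6 CPM in control libraries 1 to 3 and 94.9, 189.0 and 111.8 CPM in Oligonol libraries 1 to 3. Every control library lay above every Oligonol library. The mean went from 311.2 ± 51.8 to 131.9 ± 50.2 CPM, a log2 fold change of -1.24 (SE 0.33, adjusted p = 0.0187), but the value was 0.09 (adjusted p = 0.620) with library totals. Its value was -0.70 with the GC trend removed (adjusted p = 0.117). Leaving out control library 2 or 3 or Oligonol library 1 or 3 ended the call. The fold changes were then -1.23, -1.27, -1.03 and -1.13, with adjusted p-values of 0.0868, 0.0795, 0.0788 and 0.0888.

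FTH1 (chr11:61959718-61967634) encodes the chain with ferroxidase activity, which oxidises iron as it enters. It had 88.9, 76.9 and 78.1 CPM in the controls and 94.9, 140.5 and 113.0 CPM with Oligonol. All Oligonol libraries lay above all controls, with library 1 of each group close to the other. The log2 fold change was 0.51 (SE 0.25, 95% interval -0.07 to 1.10, adjusted p = 0.121), and 0.16 without Oligonol library 2 (adjusted p = 0.491). Removing the GC trend gave 0.78 (adjusted p = 0.0540) by the median transcript GC and 0.46 (adjusted p = 0.171) by the principal transcript's. It passed the threshold with the scaling of the deposited signal (0.90, adjusted p = 0.0154), with library totals (1.84, adjusted p = 0.00203) and when every library had to hold at least 10 counts (0.75, adjusted p = 0.0204). Ferritin pseudogenes can share reads with their parents, and here 25 FTH1 pseudogenes summed to 0.750 to 1.96% of FTH1 and 16 FTL pseudogenes to 0.0587 to 0.823% of FTL.

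The light chain moved against the heavy chain within each library, where the scaling between libraries cancels. The ratio of FTL to FTH1 estimated counts was 2.84, 4.55 and 4.25 in the controls and 1.00, 1.34 and 0.989 with Oligonol. By these values the light chain transcript was the more abundant in all controls, and with Oligonol the chains were at nearly the same level. On the log2 scale the ratio went from 1.93 ± 0.367 to 0.14 ± 0.251 (SD, n = 3), a difference of -1.79 (p = 0.1 in a 2-sided exact permutation test, which cannot go lower with 3 libraries a group; 0.167 after Benjamini-Hochberg adjustment over the 5 ratios compared). The groups also stayed apart with the GC trend removed, where the difference was -1.50 with the median transcript GC and -1.17 with the principal transcript's GC.

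**Figure D2:**
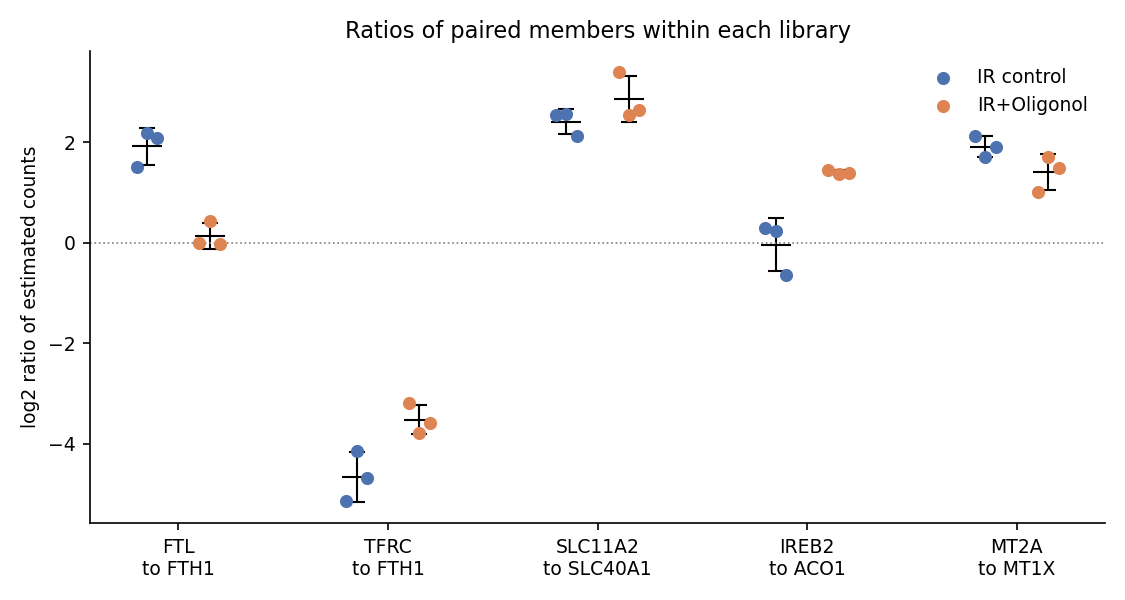
Log2 ratio of estimated counts of paired members within each library (points), with mean and SD (bars), for IR control (blue) and IR+Oligonol (orange), n = 3 each. FTL to FTH1 falls from 1.93 to 0.14 and IREB2 to ACO1 rises from -0.03 to 1.40 with no overlap, while MT2A to MT1X and SLC11A2 to SLC40A1 overlap.

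Among the uptake genes, both rose, TFRC by the larger amount. TFRC (chr3:196012511-196082153) encodes the receptor for transferrin, and the search found the 4 IREs shown above in its mRNA. It had 2.50, 4.33 and 3.04 CPM in the controls and 10.4, 10.2 and 9.45 CPM with Oligonol. The groups lay far apart and the Oligonol libraries were nearly level. The mean went from 3.29 ± 0.942 to 10.0 ± 0.493 CPM, a log2 fold change of 1.61 (SE 0.23, 95% interval 1.09 to 2.13, adjusted p = 0.00620). With the GC trend removed it was 0.71 (adjusted p = 0.0782), and without control library 3 it was 1.46 (adjusted p = 0.0503).

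SLC11A2 (chr12:50979401-51028566), the divalent metal transporter DMT1, had 4.29, 3.43 and 3.27 CPM in the controls and 5.99, 4.47 and 5.99 CPM with Oligonol. The lowest Oligonol library lay just above the highest control. The log2 fold change was 0.58 (SE 0.20, adjusted p = 0.0417), and with the GC trend removed 0.13 (adjusted p = 0.611) by the median transcript GC and -0.13 (adjusted p = 0.601) by the principal transcript's. Without control library 1, 2 or 3 the value was 0.60, 0.44 or 0.42 (adjusted p = 0.0650, 0.183 and 0.186), and without Oligonol library 1 or 3 it was 0.52 (adjusted p = 0.131 and 0.140).

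Ferroportin, the exporter, did not differ beyond the spread of libraries. SLC40A1 (chr2:189560590-189583758) had 0.715, 0.582 and 0.760 CPM in the controls and 0.561, 0.778 and 0.951 CPM with Oligonol. The groups overlapped, at a level that rested on about 112 to 253 read equivalents per library. The log2 fold change was 0.15 (SE 0.30, 95% interval -0.54 to 0.84, adjusted p = 0.716), and the value was -0.61 with the GC trend removed by the principal transcript's GC (adjusted p = 0.249) and 1.51 with library totals (adjusted p = 0.00866). It was below 0 without control library 2 (-0.044) or Oligonol library 2 or 3 (-0.059 and -0.038).

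Setting uptake against storage and against export, the ratio of TFRC to FTH1 was 0.0284, 0.0565 and 0.0387 in the controls and 0.109, 0.0727 and 0.0837 with Oligonol. The groups did not overlap, with a log2 difference of 1.14 (exact permutation p = 0.1, adjusted 0.167), but with the GC trend removed the difference was -0.08 (exact permutation p = 0.9) by the median transcript GC and 0.33 by the principal transcript's. SLC11A2 to SLC40A1 was 5.83, 5.90 and 4.36 in the controls and 10.5, 5.88 and 6.28 with Oligonol. Those groups overlapped and the log2 difference was 0.46 (exact permutation p = 0.2), and 0.19 without Oligonol library 1.

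Of the IRE-binding proteins, IREB2 rose and ACO1 did not pass the test. IREB2 (chr15:78437431-78501453) encodes iron regulatory protein 2, which is degraded when iron is plentiful, and had 1.19, 1.42 and 0.818 CPM in the controls and 4.09, 3.93 and 3.69 CPM with Oligonol. All Oligonol libraries lay well above all controls. The mean went from 1.14 ± 0.305 to 3.90 ± 0.201 CPM, a log2 fold change of 1.77 (SE 0.23, 95% interval 1.25 to 2.29, adjusted p = 0.00606). It was called in each of the 6 fits that left out a library (log2 1.49 to 1.86), and with the GC trend removed it was 0.97 (adjusted p = 0.0403). With the GC trend removed and a library left out, the value was 0.82 to 1.08 and no longer called in any of the 6 fits (lowest adjusted p = 0.0683).

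ACO1 (chr9:32384603-32454769) encodes the cytosolic aconitase that becomes iron regulatory protein 1 when its iron-sulfur cluster is lost. It had 0.954, 1.16 and 1.29 CPM in the controls and 1.50, 1.52 and 1.41 CPM with Oligonol. The Oligonol libraries lay above the controls by a narrow margin. The log2 fold change was 0.38 (SE 0.21, adjusted p = 0.171), -0.02 with the GC trend removed (adjusted p = 0.966), and 0.15 and 0.16 without control library 1 and Oligonol library 2. It passed the threshold with the scaling of the deposited signal (0.78, adjusted p = 0.0183), with library totals (1.77, adjusted p = 0.00253) and with at least 10 counts in every library (0.63, adjusted p = 0.0210). The ratio of IREB2 to ACO1 was 1.23, 1.18 and 0.641 in the controls and 2.73, 2.58 and 2.62 with Oligonol, so IREB2 was above ACO1 in all Oligonol libraries, and in the controls it was above ACO1 in libraries 1 and 2 and below it in library 3. Its log2 difference was 1.44 (exact permutation p = 0.1, adjusted 0.167), and 0.95 and 0.85 with the GC trend removed by the median and principal transcript GC, with no overlap in either.

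**Figure D3:**
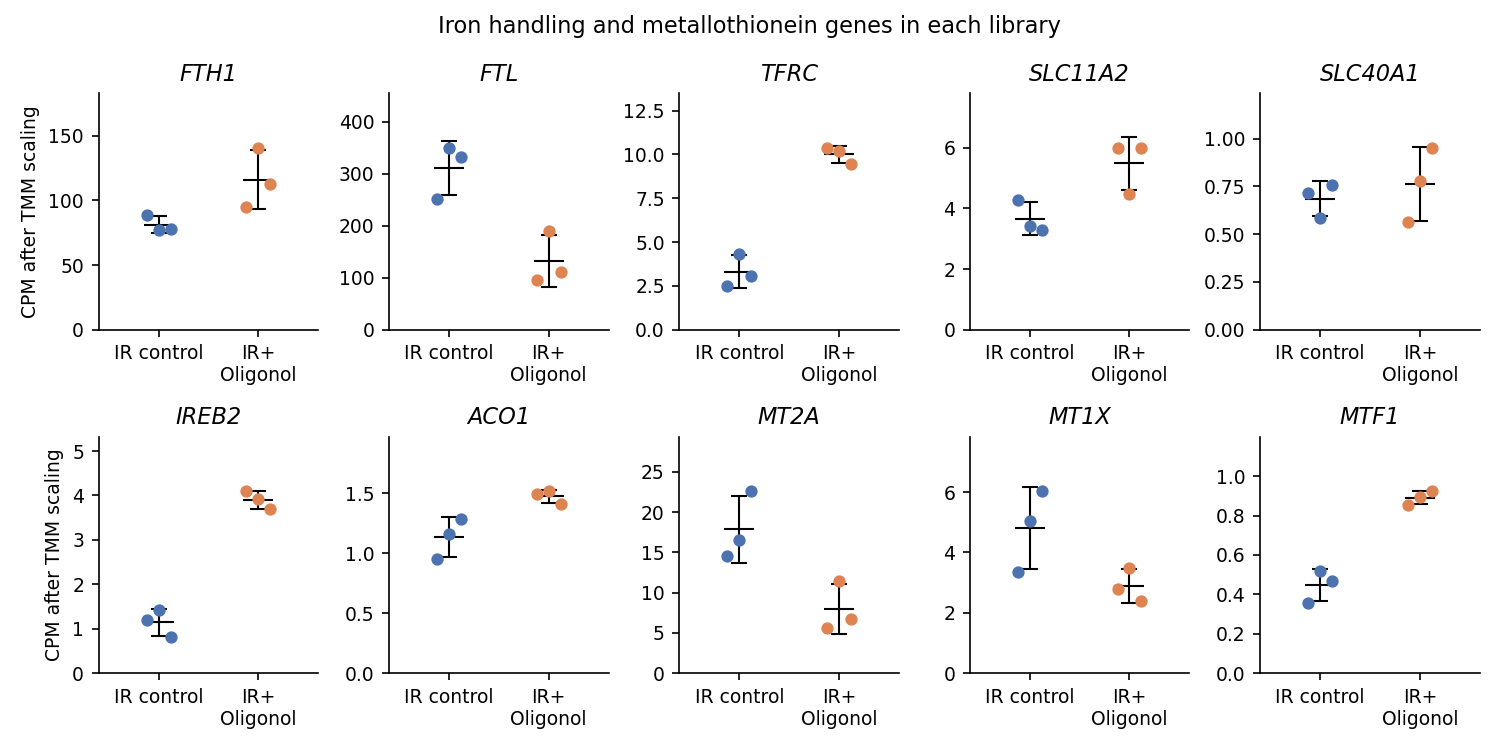
TMM CPM of each member in each library (points), with mean and SD (bars), for IR control (blue) and IR+Oligonol (orange), n = 3 each; every panel starts at 0 and has its own scale. TFRC and IREB2 lie far apart between groups, while SLC40A1 and MT1X overlap.

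The metallothionein promoters are shown because the MRE core repeats in them more often than in most promoters. In the 250 bases before the start (RefSeq, GRCh38.p14), the cores TGCACNC and TGCGCNC were searched on both strands, with matches in capitals. At least 1 core was found in 24.8% of 35116 promoters.
MT2A, chr16:56608334-56608583, plus strand, 7 cores: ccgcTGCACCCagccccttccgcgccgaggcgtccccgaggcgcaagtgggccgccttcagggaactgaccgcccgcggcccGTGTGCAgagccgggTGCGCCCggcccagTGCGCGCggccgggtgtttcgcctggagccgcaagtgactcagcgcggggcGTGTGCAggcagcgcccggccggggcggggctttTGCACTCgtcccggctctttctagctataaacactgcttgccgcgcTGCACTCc
MT1X, chr16:56682220-56682469, plus strand, 4 cores: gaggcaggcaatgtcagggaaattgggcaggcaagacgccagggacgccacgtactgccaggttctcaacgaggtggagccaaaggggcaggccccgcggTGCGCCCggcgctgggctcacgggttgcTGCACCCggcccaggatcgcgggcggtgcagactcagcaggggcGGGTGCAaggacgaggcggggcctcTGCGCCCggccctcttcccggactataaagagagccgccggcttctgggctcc

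As many cores as in MT2A were found in 0.0313% of promoters, and as many as in MT1X in 0.370%. TFRC had 3 cores, SLC40A1 2, IREB2 1 in 1 of its 2 entries, and FTL, SLC11A2, ACO1 and MTF1 none. A match is a description of letters, not of binding.

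Both metallothionein genes were lower with Oligonol under TMM scaling, and both values were above 0 with library totals. MT2A (chr16:56608584-56609497) had 14.5, 16.5 and 22.6 CPM in the controls and 5.61, 11.5 and 6.71 CPM with Oligonol. Every control lay above every Oligonol library, of which library 2 was the highest. The mean went from 17.9 ± 4.18 to 7.93 ± 3.11 CPM, a log2 fold change of -1.18 (SE 0.31, adjusted p = 0.0185); it was 0.16 with library totals (adjusted p = 0.398) and with the GC trend removed -0.83 (adjusted p = 0.0832) by the median transcript GC and -0.25 (adjusted p = 0.415) by the principal transcript's. Leaving out control library 2 or 3 or Oligonol library 1 or 3 ended the call (-1.31, -1.05, -0.96 and -1.07, adjusted p = 0.0695, 0.0892, 0.0817 and 0.0850).

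MT1X (chr16:56682470-56684196) had 3.34, 5.05 and 6.02 CPM in the controls and 2.78, 3.50 and 2.39 CPM with Oligonol. The groups overlapped, since Oligonol library 2 exceeded control library 1, and the values rested on only 56 to 113 read equivalents. The log2 fold change was -0.74 (SE 0.26, adjusted p = 0.0433), -0.57 with the GC trend removed (adjusted p = 0.151), and 0.66 with library totals (adjusted p = 0.0316), so its called direction reversed with the scaling. The call ended without control library 2 or 3 or Oligonol library 1 or 3 (-0.79, -0.62, -0.69 and -0.61, adjusted p = 0.123, 0.153, 0.139 and 0.160). The ratio of MT2A to MT1X was 4.36, 3.26 and 3.74 in the controls and 2.02, 3.27 and 2.82 with Oligonol. The groups overlapped, with a log2 difference of -0.51 (exact permutation p = 0.2). With the GC trend removed by the median transcript GC the difference was -0.31, with overlap. By the principal transcript's GC it was 0.43, with no overlap (exact permutation p = 0.1).

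MTF1 (chr1:37809574-37859592), the factor that binds MREs, passed the filter only through the Oligonol group, so that its rise is a description. It had 0.358, 0.518 and 0.468 CPM in the controls and 0.855, 0.894 and 0.922 CPM with Oligonol. The groups did not overlap, and the log2 fold change was 0.99 (SE 0.27, adjusted p = 0.0201) and 0.51 with the GC trend removed (adjusted p = 0.314). With no filter it was 0.98 (adjusted p = 0.0694). The call ended in each of the 6 fits that left out a library (log2 0.74 to 1.03): adjusted p = 0.0980, 0.0728 and 0.0815 without control library 1, 2 and 3, and 0.0691, 0.0699 and 0.0904 without Oligonol library 1, 2 and 3.

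**Figure D4:**
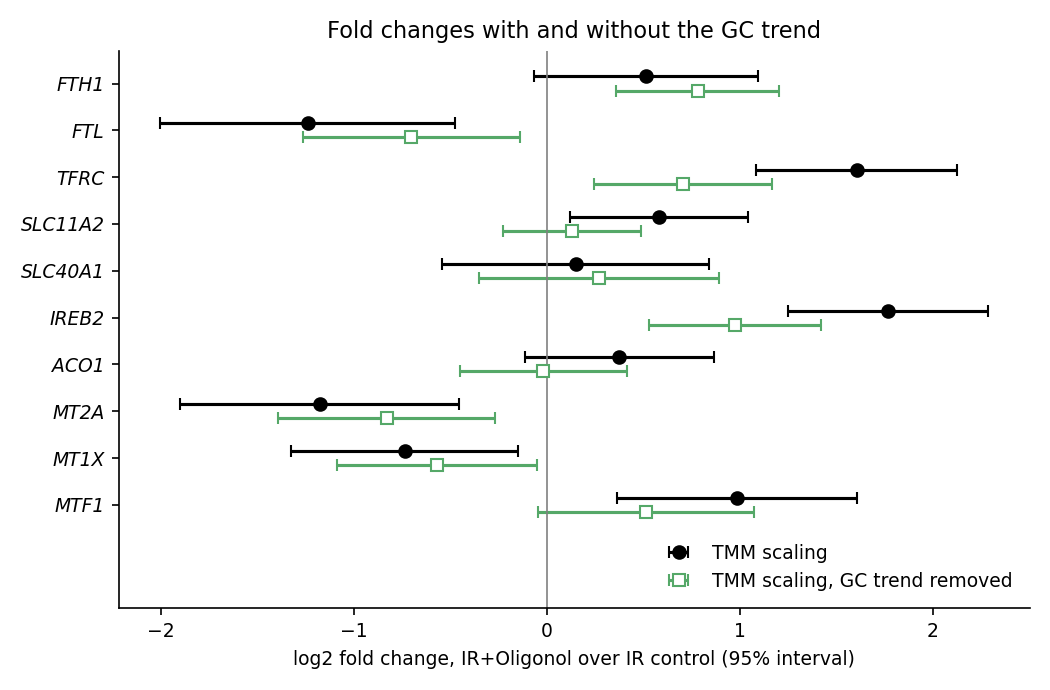
Log2 fold change of each member (IR+Oligonol over IR control) with its 95% interval, with TMM scaling (black) and with the GC trend also removed (green squares). The value of IREB2 is 1.77 and 0.97, that of FTL -1.24 and -0.70, and that of FTH1 0.51 and 0.78.

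Among other metallothionein genes, 2 of 15 had enough counts to be tested and both were lower under TMM scaling, as were 23.0% of all tested genes. MT1E went from 1.79 ± 1.00 to 0.725 ± 0.195 CPM (log2 -1.31, adjusted p = 0.0325) and MT1F from 1.77 ± 0.387 to 0.817 ± 0.331 CPM (log2 -1.13, adjusted p = 0.0262). Neither was called with the GC trend removed (-1.01 and -0.71, adjusted p = 0.147 and 0.148) or with the scaling of the deposited signal (adjusted p = 0.0912 and 0.0915), and with library totals both were above 0 (0.11 and 0.20). The levels of the other 13 were too low to test.

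Of 34 other genes of iron uptake, storage and export, 17 were tested: 3 were higher, 7 lower and 7 not called, with a median log2 fold change of -0.19 beside 0.15 for all tested genes, of which 26.0% were higher and 23.0% lower. With the scaling of the deposited signal the split turned round, to 6 higher and 2 lower (median 0.21; all genes 6396 and 1666). With library totals 13 were higher (all genes 11293 of 16574). NCOA4, the receptor that delivers ferritin to autophagy, went from 1.53 ± 0.308 to 3.43 ± 0.377 CPM (log2 1.17, SE 0.21, adjusted p = 0.00781), and had 0.60 with the GC trend removed (adjusted p = 0.0706). FLVCR1, known as a heme exporter, rose by 0.87 (adjusted p = 0.00823), and had -0.04 with the GC trend removed. STEAP2, a metalloreductase named after its values were seen, had 1.08 (adjusted p = 0.0204), and 0.09 with the GC trend removed (adjusted p = 0.945). STEAP2 passed the filter only through the Oligonol group, as MTF1 did, so its call among the 3 higher supports nothing. CYBRD1 passed in the same way. Both were among the 6 and the 13 higher with the other scalings, where their calls support nothing either. BLVRB, a biliverdin reductase, was lower by log2 -1.51 (adjusted p = 0.00902; -0.59 with the GC trend removed). FBXL5, the iron-sensing ubiquitin ligase subunit that targets IREB2 protein, had 0.21 (adjusted p = 0.333) and -0.77 with the GC trend removed (adjusted p = 0.0381). It was called higher with the scaling of the deposited signal (0.61, adjusted p = 0.0260) and with library totals (1.61, adjusted p = 0.00276), so its called direction reversed.

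Iron-sulfur cluster and heme synthesis genes had 2 higher and 16 lower of 39 tested of 41 under TMM scaling, with a median of -0.45 (-0.36 with the GC trend removed), beside 26.0% higher and 23.0% lower of all tested genes. With the scaling of the deposited signal 4 were higher and 8 lower (median -0.04; all genes 6396 and 1666). With library totals 25 were higher (all genes 11293 of 16574). CIAO3, an assembly factor for cytosolic iron-sulfur proteins, had -1.38 (adjusted p = 0.00841), FDX2, a mitochondrial ferredoxin, -1.31 (adjusted p = 0.00965) and PPOX, an enzyme of heme synthesis, -1.17 (adjusted p = 0.00988). With the GC trend removed, CIAO2A alone of the 39 was called (-1.21, adjusted p = 0.0324), and it had -0.35 before (adjusted p = 0.221). With library totals CIAO2A was called higher (1.01, adjusted p = 0.0259).

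Of 22 zinc transporters, 16 were tested: 7 were higher and 4 lower (median 0.28), beside 26.0% higher and 23.0% lower of all tested genes. With the scaling of the deposited signal these were 8 and 2 (all genes 6396 and 1666), and with library totals 11 were higher (all genes 11293 of 16574). Of the 7 higher under TMM scaling, SLC30A4 and SLC30A7 passed the filter only through the Oligonol group, as MTF1 did. They had to be higher there, so their calls support nothing. SLC30A7 had 1.48 (adjusted p = 0.00844), SLC39A10 1.34 (adjusted p = 0.00774) and SLC30A6 0.89 (adjusted p = 0.0103); with the GC trend removed they had 0.29, 0.30 and -0.17. SLC30A5 had -0.39 under TMM scaling (adjusted p = 0.150). It was called lower with the GC trend removed (-1.31, adjusted p = 0.0371) and higher with library totals (0.95, adjusted p = 0.0279). SLC30A1, a zinc exporter and known MTF1 target named after its value was seen, had 0.78 (adjusted p = 0.0405) and -0.31 with the GC trend removed (adjusted p = 0.467), beside the falls of the metallothionein genes.

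All 11 copper handling genes were tested: 2 were higher (ATP7A and SLC31A1) and 2 lower (SCO2 and CCS). Of all tested genes 26.0% were higher and 23.0% lower. With the scaling of the deposited signal 5 were higher and 1 lower (all genes 6396 and 1666). With library totals 10 were higher (all genes 11293 of 16574). SLC31A2, among both the 5 and the 10, passed the filter only through the Oligonol group, as MTF1 did, so its calls support nothing. ATP7A, the copper-transporting ATPase, went from 2.57 ± 0.545 to 8.51 ± 1.35 CPM (log2 1.73, SE 0.22, adjusted p = 0.00606), and 0.74 with the GC trend removed (adjusted p = 0.0279). SCO2, which delivers copper to cytochrome c oxidase, had -1.79 (adjusted p = 0.00694; -0.80 with the GC trend removed, adjusted p = 0.0434). COX17, a copper chaperone for the same enzyme, had -0.63 (adjusted p = 0.0765), and -1.18 with the GC trend removed (adjusted p = 0.0495). With library totals COX17 was called higher (0.80, adjusted p = 0.0498). CCS, the chaperone for superoxide dismutase, had -0.74 (adjusted p = 0.0181), and 0.16 with the GC trend removed. It too was called higher with library totals (0.63, adjusted p = 0.0485).

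Among 4 tested of 5 other mRNAs reported to carry an IRE, CDC42BPA was higher (1.23, adjusted p = 0.00714). Of all tested genes, 26.0% were higher and 23.0% lower under TMM scaling. CDC14A had 0.49 (adjusted p = 0.239), and passed the filter only through the Oligonol group. Of 7 tested of 10 genes of ferroptosis, the iron-dependent form of cell death, ACSL4 was higher (1.53, adjusted p = 0.00773), and GPX4 (-1.05, adjusted p = 0.0279) and SLC3A2 (-0.85, adjusted p = 0.0285) were lower under TMM scaling and above 0 with library totals (0.26 and 0.50). With the GC trend removed, CDC42BPA had 0.36 (adjusted p = 0.174), ACSL4 0.66 (adjusted p = 0.139), GPX4 -0.13 (adjusted p = 0.670) and SLC3A2 -0.40 (adjusted p = 0.187).

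**Figure D5:**
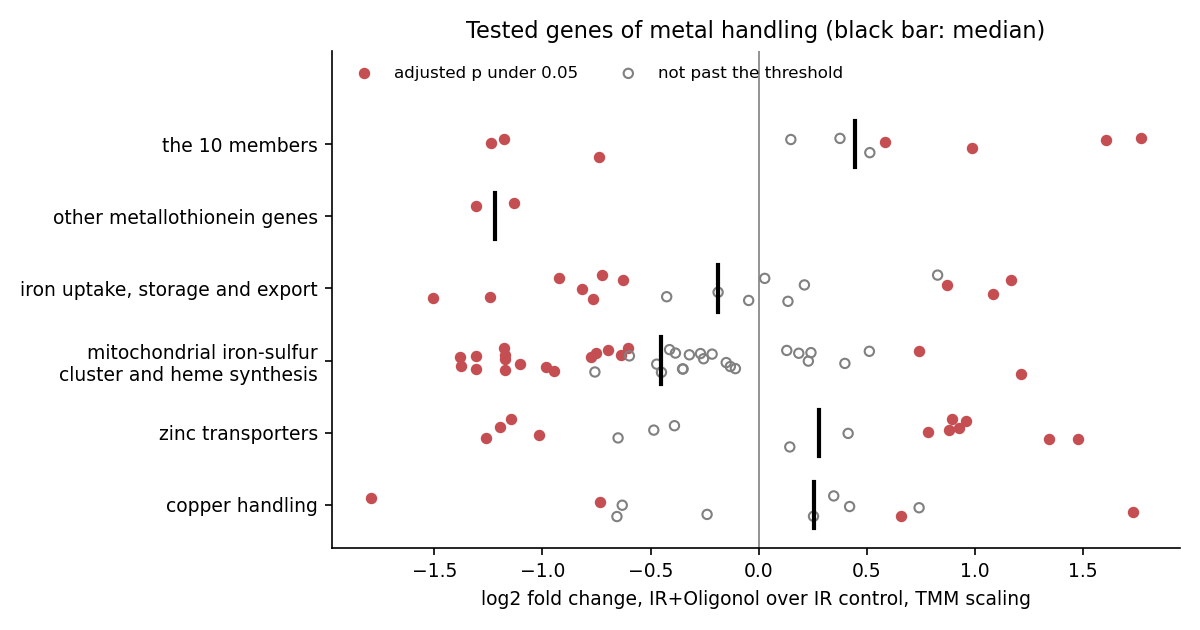
Log2 fold change (IR+Oligonol over IR control, TMM scaling) of the tested genes of each list, red where the adjusted p is under 0.05 and open grey otherwise, with the median as a black bar. The median is 0.45 for the 10 members, -1.22 for the other metallothionein genes and -0.45 for the iron-sulfur and heme genes.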

How the data were processed

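Total RNA from 6 samples was sequenced with a stranded kit, per the labels' protocols. Tools and build named in the submitters' processing notes are kallisto 0.46.1, FastQC, edgeR and GRCh38.p13, without their roles. The authors deposited, per gene and library, an estimated count and a scaled signal. The deposited signal equalled that count over 1 constant per library. How transcripts became gene values: not given in the sources used here; 99.1% of the deposited values above 0 were not whole. They behaved as abundances per length: for genes with 1 transcript of low level, 67.1 to 70.4% were within 0.05 of whole reads, on a scale fitted to favour this. On that scale 1 read of a 1 kb transcript was worth 0.311 to 0.544 estimated counts, and protein-coding genes held 5199250 to 6410309 read equivalents per library, so short transcripts are weighted above their reads.

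Estimated counts were rounded, filtered with filterByExpr, scaled by TMM and tested with edgeR 4.0.16 (robust quasi-likelihood, 2-sided) in R 4.3.3, with limma 3.58.1 and DESeq2 1.42.0 also used; scripts were tested on simulated data. The GC trend was a spline with 5 degrees of freedom per library. Ratios of members were tested by exact permutation. The members and lists were chosen with earlier results of these data known. Named list genes were the 3 with the smallest p, plus any called with the GC trend removed. Some genes that the rule or a count would name are not reported here. Whether replicate numbers pair the samples is not stated in the labels, and the main fit did not pair them. Alternatives were other scalings, filters, DESeq2, a replicate block and libraries left out; the GC trend by the principal transcript, GC removal with a library left out, GC-removed ratios and the scaling of the deposited signal were added after seeing the data. The RefSeq promoter table matched 9 of 10 members, without FTH1.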

Additional observations from a re-analysis of the deposited data

How the results depend on the processing

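In the comparison of IR+Oligonol with IR control, 8112 genes and 7 members were called. Without a filter on low counts these were 4567 and 2. With the GC trend removed they were 883 and 1, and 1276 and 1 with the principal transcript's GC. With the replicate block 7030 genes and 4 members (FTL, IREB2, MT2A and TFRC) were called; with the replicate block and the GC trend removed, edgeR called 0 of each, with 3992 genes at an unadjusted p under 0.05. Same-numbered libraries did not deviate together (r of 0.06, -0.004 and -0.13). Leaving out a library gave 782 to 9492 genes and 1 to 6 members. With the GC trend also removed, edgeR called 0 to 490 genes and 0 members. Its unadjusted p was under 0.05 in those fits for 4 to 6 of the 10 members. That was so for 3068 (of 16790 tested) to 5540 (of 19755 tested) of all genes. DESeq2 called 7143 genes and 6 members. With no change of direction, FTH1 passed the threshold under 3 alternatives, while TFRC no longer did under 10, IREB2 under 7 and MTF1 under 18; FTL and MT2A lost their call under 14 each, SLC11A2 under 16 and MT1X under 17. With the GC trend removed, the difference of TFRC to FTH1 was -0.083 and that of SLC11A2 to SLC40A1 -0.12, and with the principal transcript's GC that of MT2A to MT1X was 0.43. Library totals turned FTL (0.085), MT1X (0.66) and MT2A (0.16). SLC11A2 was -0.13 and SLC40A1 -0.61 with the principal transcript's GC; SLC40A1 ranged from -0.059 to 0.34 over the libraries left out. ACO1 was -0.018 with the GC trend removed, -0.011 with the replicate block as well and -0.11 with the principal transcript's GC, and -0.15 to 0.065 with a library also left out (-0.019 without control library 2). For each of these the cause was not tested. MT1X and SLC40A1 rested on the fewest read equivalents (56 and 112 at the lowest).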
